A study of Mus musculus with 9 samples.

Results

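The genes described here carry, store or buffer metal ions. They are the Slc39 (ZIP) and Slc30 (ZnT) zinc transporter families, the copper transporters Slc31a1, Slc31a2, Atp7a and Atp7b, the iron genes Slc11a1, Slc11a2, Slc40a1, Tfrc, Fth1 and Ftl1, the Slc41 family, which transports magnesium, and the zinc buffering genes Mt1, Mt2, Mt3 and Mtf1. They were taken by gene symbol, without use of their values, which gave 41 of the 52459 gene symbols in the deposited files. Of these, 32 reached at least 1 CPM (counts per 1000000 counts) in at least 3 libraries and were tested. RNA-Seq had been carried out on 9 libraries of NMuMG cells, an immortalized epithelial line from mouse mammary gland, 3 for each of 3 conditions. All cells had been stably transfected with a pBICEP-based expression vector and selected with G418 as transfectant pools. Mock cells carried the empty vector, EPR cells carried the long noncoding RNA EPR, and EPRSTOPE cells carried EPR with the second codon of its open reading frame changed to a stop, so that its small peptide cannot be made. EPR and EPRSTOPE were each compared with mock to see what overexpression of the RNA went with, and with each other to see whether the 2 forms differed. The study's methods describe biological triplicates. The labels do not say whether the 3 libraries of a condition came from separate transfectant pools, so the p-values measure the spread between these libraries only.

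Metals that cells need are kept within narrow limits by pairs of opposed transporters. ZIP proteins bring zinc into the cytosol and ZnT proteins take it out or load it into vesicles, while metallothioneins bind the excess under control of the zinc sensor MTF1. Iron enters bound to transferrin through the transferrin receptor, crosses membranes through DMT1, is stored in ferritin and leaves only through ferroportin. Several of the iron mRNAs hold an iron responsive element, a short hairpin whose loop is bound by the iron regulatory proteins when cells are low in iron. In a 5′ untranslated region that binding blocks translation, and in a 3′ untranslated region it protects the mRNA from decay.

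The hairpins are shown because the control of iron mRNAs rests on them, and the search gives which of the iron genes described below hold such letters. Spliced transcripts of Gencode M21 (mouse build GRCm38) were searched for an unpaired C, 5 bases, the loop CAGTGN and 5 bases able to pair with the first 5, allowing G-U pairs, on the sense strand. A match was found in 4 of the 41 metal genes and in 0.808% of all 55450 genes. When 1 extra base was allowed after the loop, a choice made after the first search had found none in Slc11a2, a match also appeared in Slc11a2-205, and the share of all genes was 2.52%. A match describes the letters and does not show that the hairpin is used in these cells. In the lines that follow, written 5′ to 3′ as DNA, the capitals mark the first 5 bases of the loop.
Fth1-201, exon 1, 5′ untranslated region, chr19:9982738-9982754, plus strand: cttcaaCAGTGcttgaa
Ftl1-201, exon 1, 5′ untranslated region, chr7:45459785-45459801, minus strand: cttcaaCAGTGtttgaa
Slc40a1-201, exon 1, 5′ untranslated region, chr1:45925471-45925487, minus strand: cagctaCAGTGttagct
Tfrc-201, exon 19, 3′ untranslated region, chr16:32631225-32631241, plus strand: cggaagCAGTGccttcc
Tfrc-201, exon 19, 3′ untranslated region, chr16:32631604-32631620, plus strand: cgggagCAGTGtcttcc
Tfrc-201, exon 19, 3′ untranslated region, chr16:32631669-32631685, plus strand: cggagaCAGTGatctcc
Tfrc-201, exon 19, 3′ untranslated region, chr16:32631716-32631732, plus strand: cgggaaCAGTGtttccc
Slc11a2-205, exon 16, 3′ untranslated region, chr15:100395158-100395175, minus strand, 1 extra base: cagagcCAGTGtgtttct
The ferritin and ferroportin mRNAs carried theirs ahead of the coding region, and the transferrin receptor and the Slc11a2-205 form carried theirs behind it. Slc11a2-201, which ends in another exon, held no match.

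The libraries held 5972457 to 11876435 estimated counts, at which 3 counts correspond to 0.253 to 0.502 CPM. The EPR transcript was at 0, 0 and 2 counts in mock, 271, 214 and 256 in EPR and 28, 39 and 33 in EPRSTOPE, so EPRSTOPE cells held less of the RNA than EPR cells. In EPR against EPRSTOPE the level of the RNA and the stop codon cannot be told apart. Of 11 epithelial markers, 5 were at 0 in every mock library (Epcam, Cldn3, Cldn4, Cldn7 and Esrp1), and Cdh1 averaged 0.843 CPM in mock against 556 in EPR and 403 in EPRSTOPE. Cldn3, Cldn4, Cldn7 and Esrp1 were also at 0 in every EPRSTOPE library and averaged 0.0623 to 0.231 CPM in EPR. The summed level of the 11 epithelial markers was 3692 to 4157 CPM in mock, 9493 to 10601 in EPR and 10686 to 11023 in EPRSTOPE. Most of it was Krt8 (2108, 5263 and 5977 CPM on average) and Krt18 (1526, 3746 and 4137 CPM). The summed level of 11 mesenchymal markers was 4035 to 4201, 2214 to 2445 and 3959 to 4299 CPM. Most of it was Vim (2634, 1768 and 3138 CPM on average) and Fn1 (1039, 379 and 782 CPM). The epithelial sum was higher in both overexpressing conditions, while the mesenchymal sum was lower in EPR only and overlapped mock in EPRSTOPE. That overlap hides single markers that moved in opposite directions in EPRSTOPE. Vim was higher and Fn1 lower than in mock, Cdh2 averaged 330, 132 and 158 CPM, and Pdgfra averaged 0, 1.19 and 1.3 CPM. The part of these marker levels in the results below was not tested. The fragment length that Kallisto used, read as length minus effective length of long transcripts, was 410.8 to 472.9 bases in mock, 180.1 to 281.7 in EPR and 115.0 to 386.0 in EPRSTOPE.

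More of the metal genes were higher than lower in the overexpressing cells. In bulk libraries a change in the share of cells that express a gene and a change in its RNA per cell cannot be told apart. A gene was called when the adjusted p of edgeR's quasi-likelihood test (Benjamini-Hochberg over all 15370 genes tested) was under 0.01 and the log2 fold change was beyond 0.5. Of the 32 tested metal genes, 9 were higher and 1 was lower in EPR than in mock, against 15.2% higher and 12.9% lower among all genes. In EPRSTOPE against mock, 10 were higher and 2 lower, against 15.6% and 12.4%. In EPR against EPRSTOPE, 3 were higher and 1 lower, against 6.86% and 6.35%. The total called was 10, 12 and 4 of 32, and the share of all genes called in either direction was 28.1%, 28.0% and 13.2%, so the metal genes were called about as often as genes in general. Their median log2 fold change was 0.38, 0.42 and -0.09, beside -0.01, -0.04 and 0.01 for all genes. Every EPR library lay above every mock library for 23 of the 32 and below for 7, where 28.9% of all genes lay above and 28.9% below. For EPRSTOPE the numbers were 20 above and 4 below, against 28.2% and 28.3%. EPR lay above EPRSTOPE for 7 and below for 9, against 20.8% and 22.2%. Both comparisons use the same 3 mock libraries, so they are not independent. The smallest p that an exact permutation test can give for 3 libraries against 3 is 0.1, and it gave that value for every gene said below not to overlap between 2 conditions.

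**Figure D1:**
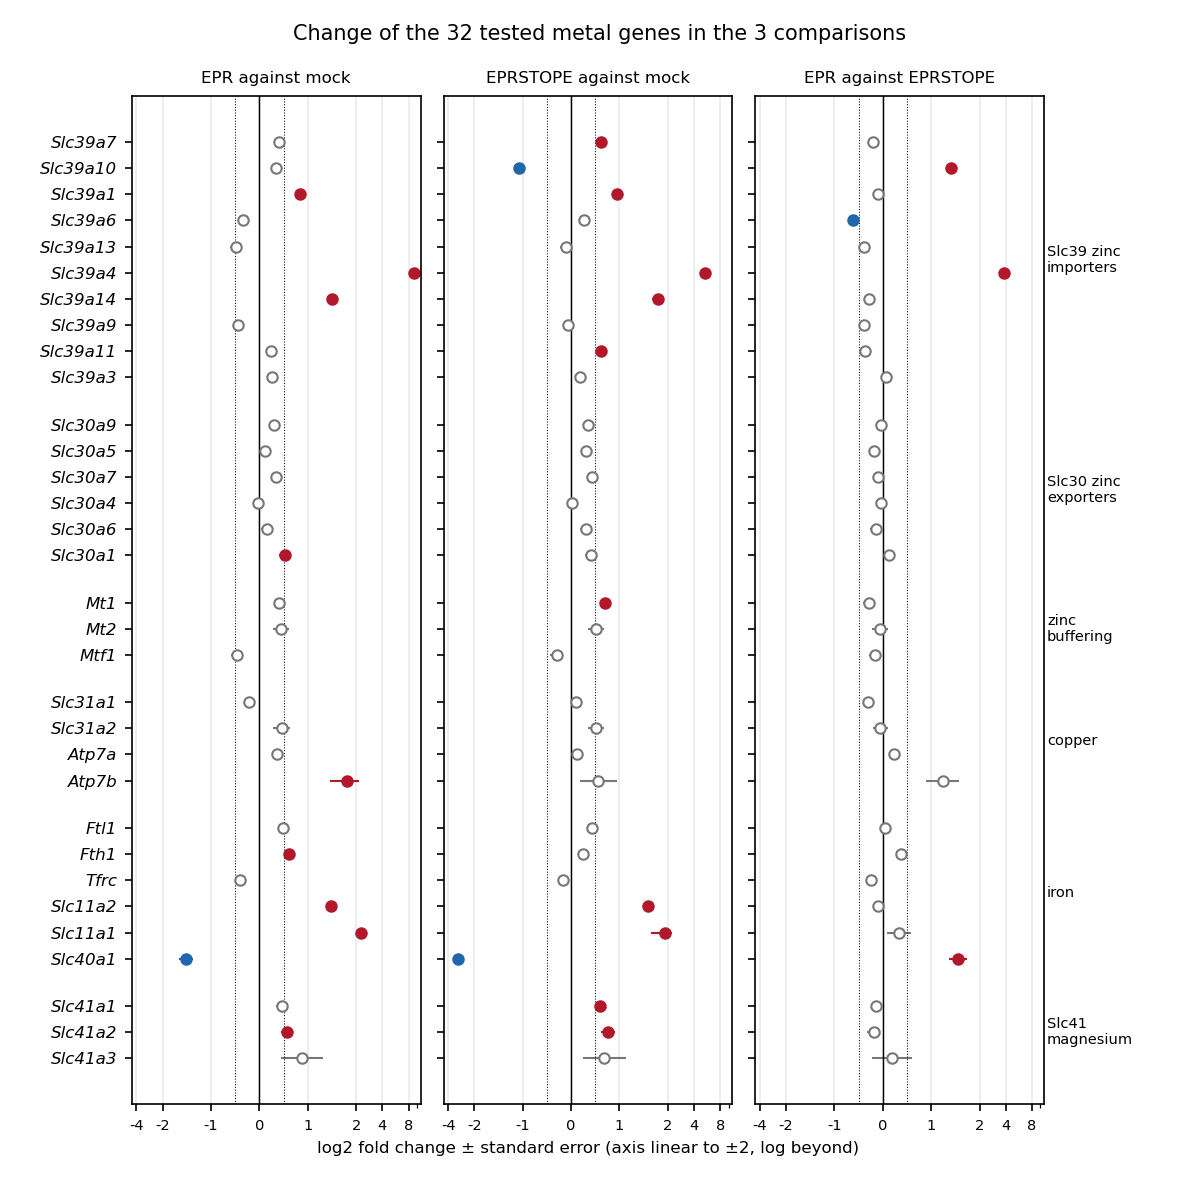
Log2 fold change with its standard error for the 32 tested metal genes, grouped by role, in the 3 comparisons named above the panels. Filled red points were called higher, filled blue points lower and open points were not called, the dotted lines stand at 0.5 and -0.5, and the axis is linear to 2 and logarithmic beyond. Slc39a4 stands farthest to the right in every panel, and Slc40a1 stands farthest to the left in both comparisons with mock.

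Of the 32 genes, 6 were called higher with both forms (Slc11a1, Slc11a2, Slc39a1, Slc39a4, Slc39a14 and Slc41a2) and Slc40a1 was called lower with both. Atp7b, Fth1 and Slc30a1 were called higher in EPR alone, and Mt1, Slc39a7, Slc39a11 and Slc41a1 higher and Slc39a10 lower in EPRSTOPE alone. A call with 1 form and not with the other does not show that the forms differ, and of these only Slc39a10 was also called in EPR against EPRSTOPE. The other 17 were called in neither comparison with mock. Levels per transcript length, in TPM (counts per length, scaled to a sum of 1000000 per library), differed widely between the genes. The ferritin light chain Ftl1 averaged 2513 TPM in mock, the heavy chain Fth1 846, Mt1 173, Tfrc 133 and Slc39a7, the most abundant ZIP gene, 101. At the other end Atp7b averaged 0.21 TPM and Slc39a4 0.112 TPM in mock.

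**Figure D2:**
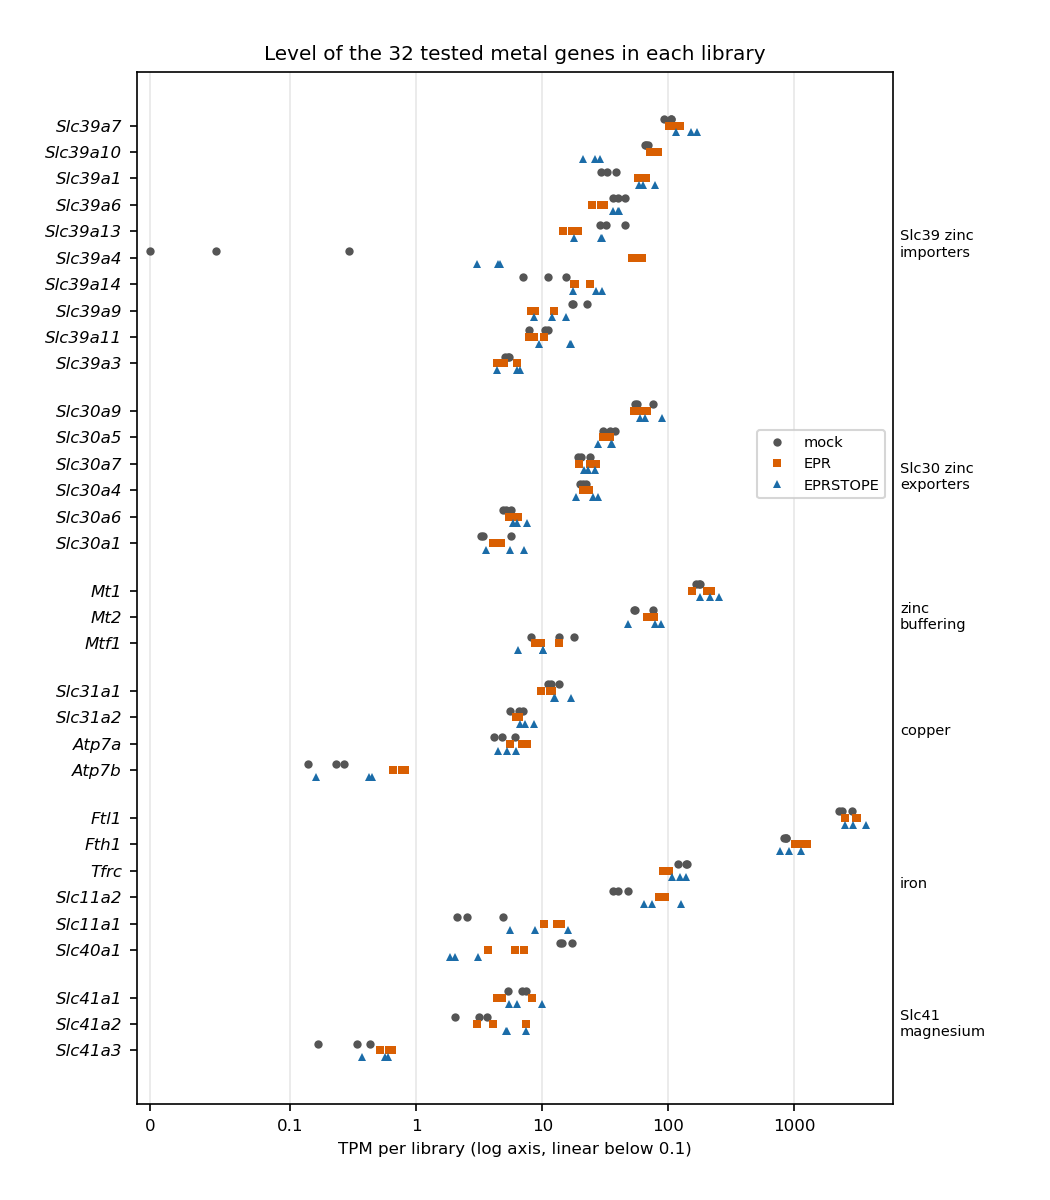
TPM of the 32 tested metal genes in each of the 9 libraries, on an axis that is logarithmic above 0.1 and linear below it; circles are mock, squares EPR and triangles EPRSTOPE libraries. Ftl1 and Fth1 are the most abundant in every condition, and the Slc39a4 average is 0.112 TPM for mock, 55.7 for EPR and 4.01 for EPRSTOPE.

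Of the 6 iron genes, 4 were called in EPR against mock and 3 in EPRSTOPE against mock, where 28.1% and 28.0% of all genes were called. The importers Slc11a1 and Slc11a2 rose and the exporter Slc40a1 fell with both forms. Slc11a2 (ENSMUSG00000023030, chr15:100387898-100425072, minus strand) encodes DMT1, which moves ferrous iron into the cytosol from the gut lumen and from endosomes. It was at 65.4, 64.5 and 56.6 CPM in mock, 179, 175 and 169 in EPR, and 186, 179 and 190 in EPRSTOPE. All 6 overexpressing libraries lay well above the mock libraries. The EPR libraries lay below the EPRSTOPE libraries by a gap so narrow that the nearest values both round to 179. The log2 fold change was 1.49 ± 0.07 (SE) for EPR and 1.58 ± 0.07 for EPRSTOPE (edgeR adjusted p = 5.4e-09 and 2.9e-09), and -0.09 ± 0.06 between the 2 (adjusted p = 0.34). Gm5475 overlaps Slc11a2 on the opposite strand by 2926 bases.

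Slc11a2 makes forms that end in different 3′ exons, and the form with the hairpin printed above is the one known to be bound by iron regulatory proteins. Of the counts that Kallisto divided between Slc11a2-205, with the hairpin, and Slc11a2-201, without it, the hairpin form took 70.5, 64.3 and 63.0% in mock. Its share was 72.2, 81.0 and 73.1% in EPR and 77.3, 73.4 and 77.8% in EPRSTOPE. The lowest overexpressing library was above the highest mock library by less than the spread within mock. The mean share was higher by 9.49 percentage points in EPR and by 10.2 in EPRSTOPE (exact permutation p = 0.1 for both, two-sided), while EPR and EPRSTOPE differed by -0.723 points (exact p = 0.8). Both forms were called higher in the fit over transcripts, by 1.82 and 1.92 on the log2 scale for Slc11a2-205 in EPR and EPRSTOPE, and by 1.17 and 1.22 for Slc11a2-201. In EPR the Slc11a2-201 call was lost with limma (adjusted p = 0.01) and when any 1 library other than EPR 207 was left out (edgeR adjusted p = 0.011 to 0.046). In EPRSTOPE it was lost with limma (adjusted p = 0.011) and without any 1 of mock 203, 204 and 205, EPR 206 and 208, and EPRSTOPE 209 and 210 (edgeR adjusted p = 0.013 to 0.037). Short reads are shared between the forms, so that the split is an estimate, and the fragment lengths above, which enter it, also moved with the condition.

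**Figure D3:**
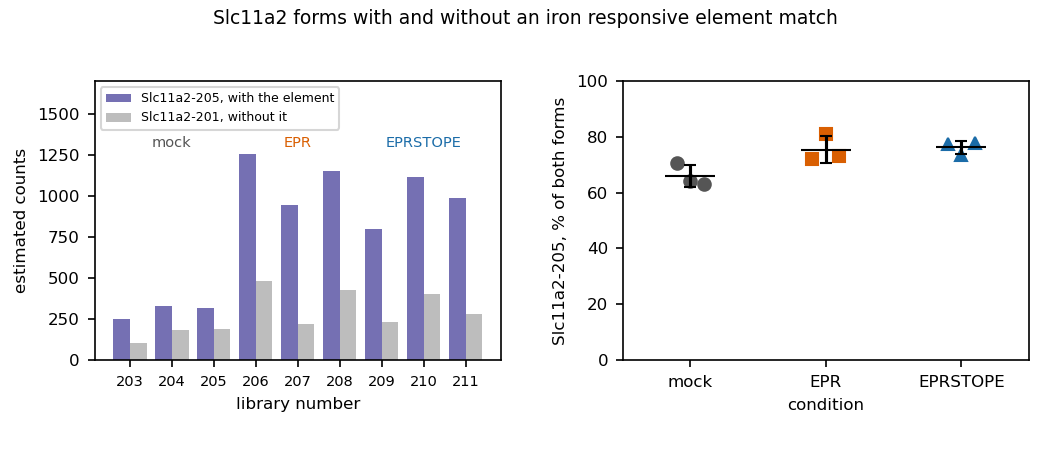
Left, estimated counts of the Slc11a2 forms with (Slc11a2-205) and without (Slc11a2-201) a match to an iron responsive element in the 9 libraries, not scaled for depth. Right, the share of Slc11a2-205 in the sum of both forms, with points for libraries and bars for mean and SD (n = 3); the mean is 65.9% in mock, 75.4% in EPR and 76.2% in EPRSTOPE.

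Slc11a1 (ENSMUSG00000026177, chr1:74375195-74386062, plus strand) encodes NRAMP1, the relative of DMT1 in the phagosomes of macrophages. It was low everywhere, at 3.42, 2.95 and 1.22 CPM in mock, 11.2, 13.4 and 10.8 in EPR and 8.47, 9.18 and 10.2 in EPRSTOPE. No library of either form overlapped mock. Against mock it differed by 2.28 ± 0.29 on the log2 scale in EPR and 1.95 ± 0.29 in EPRSTOPE (edgeR adjusted p = 3.5e-05 and 0.00015). Among 8 macrophage markers, the summed level was 40.4 to 45.6 CPM in mock, 292 to 320 in EPR and 190 to 215 in EPRSTOPE, nearly all of it Cd14 (39.6, 303 and 195 CPM on average). The macrophage-defining Adgre1 was at 0 in all 9 libraries, and Ptprc and Csf1r stayed under 1 CPM on average in each condition.

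Tfrc, the receptor that takes up transferrin-bound iron, was at 563, 546 and 540 CPM in mock, 386, 404 and 448 in EPR and 549, 430 and 491 in EPRSTOPE. The EPR libraries lay below all mock libraries, and the EPRSTOPE libraries overlapped both. Its log2 fold change in EPR, -0.41 ± 0.08 (edgeR adjusted p = 0.0013), did not reach the limit of 0.5, and in EPRSTOPE it was -0.17 ± 0.08 (adjusted p = 0.12). Tfrc-201, which carries the 4 hairpins, took 84.7 to 85.1% of the counts of Tfrc-201 and Tfrc-202 in mock, 85.8 to 91.3% in EPR and 83.8 to 92.8% in EPRSTOPE.

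Slc40a1 (ENSMUSG00000025993, chr1:45908068-45926523, minus strand) encodes ferroportin, the only known cellular iron exporter. It was at 37.7, 33.1 and 38.6 CPM in mock, 11.3, 12.1 and 14.6 in EPR, and 5.59, 4.48 and 3.11 in EPRSTOPE. The 3 conditions did not overlap, with EPR between mock and EPRSTOPE. Against mock it fell by 1.52 ± 0.15 on the log2 scale in EPR (edgeR adjusted p = 5.4e-06) and by 3.08 ± 0.18 in EPRSTOPE (adjusted p = 3.9e-08). In the direct comparison it was higher in EPR than in EPRSTOPE by 1.56 ± 0.19 (adjusted p = 6.3e-05). That last call was lost when counts were rebuilt from TPM and transcript length, where the log2 fold change was 1.31 and the adjusted p 0.017.

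The ferritin genes, whose products together form the iron storage shell, differed in how far they moved. Fth1 was at 556, 591 and 585 CPM in mock, 953, 874 and 833 in EPR and 667, 701 and 672 in EPRSTOPE. The conditions did not overlap, and EPR was highest. Its log2 fold change was 0.62 ± 0.06 in EPR (edgeR adjusted p = 2.4e-06), which was called, and 0.24 ± 0.06 in EPRSTOPE (adjusted p = 0.0042), which was not. Ftl1 was at 1682, 1993 and 1948 CPM in mock, 2722, 2747 and 2408 in EPR and 2478, 2703 and 2458 in EPRSTOPE. Mock was again lowest, but the overexpressing cells overlapped each other. Its log2 fold changes of 0.49 ± 0.07 (adjusted p = 0.00013) and 0.44 ± 0.07 (adjusted p = 0.00027) stayed just under the limit. In EPR Ftl1 was called higher with the filter of 10 counts in every library, in a fit of the 2 conditions alone, and without mock library 204 or 205 or EPR library 208 (0.50 to 0.56). Both ferritins have pseudogenes, which Kallisto gave at most 49.1 counts in a library, and adding these left both genes' calls as they were. The effective length of the short Fth1-201 was 427.7 to 549.0 bases in mock, 584.3 to 685.9 in EPR and 480.0 to 751.0 in EPRSTOPE, and the EPR call held with counts rebuilt from TPM and length.

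**Figure D4:**
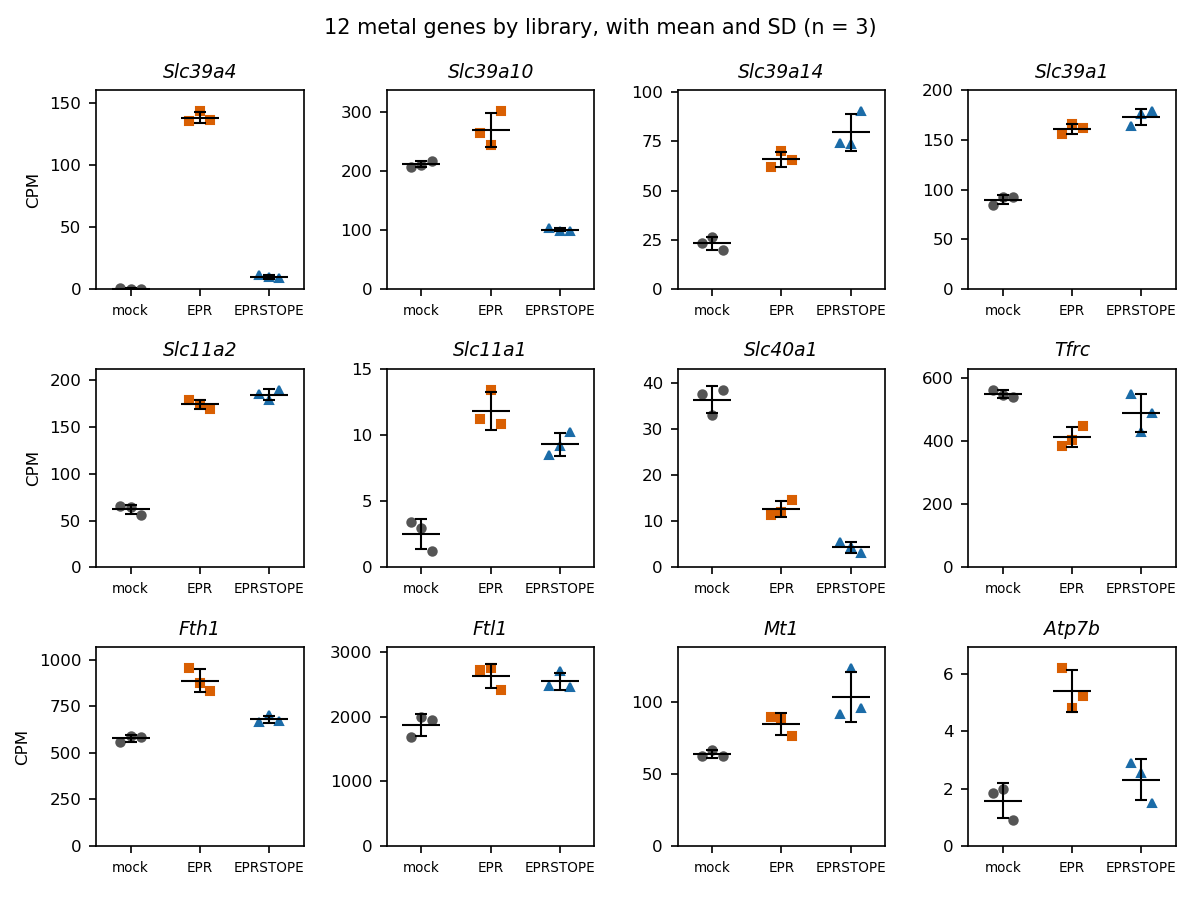
CPM, normalized by TMM, of 12 metal genes in each library, with the mean and SD of 3 libraries per condition as bars and every axis starting at 0. Slc39a4, Slc11a2, Slc11a1, Slc39a1 and Slc39a14 lie higher and Slc40a1 lower in both overexpressing conditions than in mock, and Slc39a10 lies lower in EPRSTOPE only.

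The zinc importers gave the largest single change. Slc39a4 (ENSMUSG00000063354, chr15:76612383-76617384, minus strand) encodes ZIP4, the importer through which the gut takes up dietary zinc. It was at 0.777, 0.106 and 0 CPM in mock, 135, 143 and 136 in EPR, and 11.2, 9.29 and 8.51 in EPRSTOPE. The conditions were far apart and none of the libraries overlapped. The mock libraries held 6 counts in all, the EPR libraries 4146 and the EPRSTOPE libraries 227. Summed over libraries and scaled by depth, the level in EPR was 615 times that in mock, with an exact 95% interval for counting error of 282 to 1676, and in EPRSTOPE it was 41.1 times (18.6 to 113). EPR exceeded EPRSTOPE 15 times (13.1 to 17.2). All 3 differences were called by edgeR, with log2 fold changes of 9.24 ± 0.31, 5.39 ± 0.41 and 3.85 ± 0.18 (adjusted p = 3.8e-10, 4.4e-07 and 4.1e-08). Those against mock depend on the prior count, because the mock level is close to 0. The EPR transcript has the same order of conditions, and whether the 2 are related was not tested.

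Slc39a14 (ENSMUSG00000022094, chr14:70303469-70351425, minus strand) encodes ZIP14, which carries zinc, manganese and iron not bound to transferrin. It was at 23.5, 26.2 and 19.7 CPM in mock, 62.1, 70.0 and 65.5 in EPR and 74.4, 73.9 and 90.3 in EPRSTOPE. EPRSTOPE lay above EPR, and both lay above mock without overlap. It rose by 1.51 ± 0.11 and 1.79 ± 0.11 on the log2 scale (edgeR adjusted p = 4.3e-07 and 9e-08), and the difference between the 2 forms was not called (-0.28 ± 0.11, adjusted p = 0.071).

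Slc39a10 (ENSMUSG00000025986, chr1:46807544-46892852, minus strand), an importer of the plasma membrane, fell in EPRSTOPE. It was at 207, 210 and 217 CPM in mock, 264, 244 and 301 in EPR and 104, 99.0 and 98.8 in EPRSTOPE. EPR was highest and EPRSTOPE lowest, without overlap. Against mock the log2 fold change was 0.35 ± 0.07 in EPR (edgeR adjusted p = 0.0016), under the limit, and -1.07 ± 0.07 in EPRSTOPE (adjusted p = 1.9e-07). The difference between EPR and EPRSTOPE was 1.42 ± 0.07 (adjusted p = 7.8e-08). Gm28151 and Gm37393 lie within the gene on the same strand.

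Slc39a10 and Slc40a1 are neighbours, 881020 bases apart on chromosome 1, and both were lowest in EPRSTOPE. The tested gene that starts between them, Dnah7b, averaged 1.69, 1.99 and 1.35 CPM in mock, EPR and EPRSTOPE, with a log2 fold change of -0.34 in EPRSTOPE against mock that was not called (edgeR adjusted p = 0.47). Gm28151, inside the span of Slc39a10, averaged 3.01, 3.77 and 1.69 CPM, and its -0.79 was not called (adjusted p = 0.1). Wdr75, just beyond Slc40a1, averaged 138, 108 and 122 CPM, and its -0.18 was not called either (adjusted p = 0.069). These 3 had lower averages in EPRSTOPE than in mock. Within 1000000 bases beyond Slc39a10, Gm8337 averaged 1.80 CPM in mock and 1.42 in EPRSTOPE. Gm28826 went the other way, with 0.591 and 0.963 CPM. Neither was called in EPRSTOPE against mock (edgeR adjusted p = 0.48 and 0.38). Whether the region moved as a whole was not tested.

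Of the other importers, Slc39a1, the widely expressed ZIP1 of the plasma membrane, was at 84.7, 93.1 and 92.2 CPM in mock and rose on the log2 scale by 0.84 ± 0.06 in EPR and 0.94 ± 0.06 in EPRSTOPE (edgeR adjusted p = 3.8e-07 and 1.3e-07). Slc39a7, which releases zinc from the endoplasmic reticulum and Golgi, showed 0.41 ± 0.05 in EPR, under the limit, and rose by 0.62 ± 0.05 in EPRSTOPE (adjusted p = 1.6e-06). Gm20427 overlaps it on the same strand by 3312 bases, so that its counts may be divided. Slc39a11 showed 0.25 ± 0.09 in EPR and rose by 0.61 ± 0.09 in EPRSTOPE (adjusted p = 0.00017). When counts were rebuilt from TPM and length the Slc39a11 call was lost (log2 fold change 0.71, adjusted p = 0.031). Slc39a6, known as an estrogen-responsive importer of breast epithelium, differed between the forms. Its averages were 92.6, 72.8 and 112 CPM in mock, EPR and EPRSTOPE, and it was called lower in EPR than in EPRSTOPE (-0.62 ± 0.06, adjusted p = 1.7e-05). Neither of its differences from mock reached the limit (-0.34 ± 0.06 and 0.27 ± 0.06), and with the rebuilt counts the direct call was lost too (-0.43, adjusted p = 0.044). Slc39a9 and Slc39a13, both importers of the secretory pathway, lay below every mock library in EPR without reaching the limit (-0.44 ± 0.07 and -0.49 ± 0.12). Slc39a13 was called lower without mock library 205 or without EPR library 206 (-0.59 in both cases), and Psmc3 overlaps it on the opposite strand. Slc39a3 was not called in any comparison (0.26, 0.19 and 0.07).

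Of the 6 tested zinc exporters of the Slc30 family only Slc30a1, the exporter of the plasma membrane and a target of MTF1, was called in any comparison. Slc30a1 was at 14.6, 19.2 and 14.6 CPM in mock, 23.1, 23.6 and 23.1 in EPR and 19.0, 21.7 and 23.5 in EPRSTOPE. The EPR libraries lay above mock, and the EPRSTOPE libraries overlapped mock. The log2 fold change in EPR was 0.53 ± 0.13 (edgeR adjusted p = 0.0042), close to both limits. That call was lost without mock library 203 or 205 and without EPR library 206, 207 or 208 (adjusted p between 0.012 and 0.026), and also with counts rebuilt from TPM and length (0.29, adjusted p = 0.44). In EPRSTOPE it was 0.41 ± 0.13 (adjusted p = 0.019), and it was called without mock library 204 (0.55, adjusted p = 0.0036). Slc30a4, Slc30a5, Slc30a6, Slc30a7 and Slc30a9 act at the membranes of vesicles, the Golgi or other compartments. They had log2 fold changes of -0.03 to 0.35 in EPR and 0.01 to 0.44 in EPRSTOPE.

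Among the buffering genes, the metallothionein Mt1 was at 62.1, 66.6 and 62.0 CPM in mock, 89.6, 88.0 and 76.1 in EPR and 91.1, 123 and 95.3 in EPRSTOPE. EPRSTOPE was highest and mock lowest, without overlap. The log2 fold change was 0.41 ± 0.11 in EPR (edgeR adjusted p = 0.0072), under the limit, and 0.70 ± 0.11 in EPRSTOPE (adjusted p = 0.00018). Mt1 is a very short mRNA, and the effective length Kallisto gave Mt1-201 was 224.8 to 301.7 bases in mock, 315.2 to 368.9 in EPR and 285.0 to 447.7 in EPRSTOPE. With counts rebuilt from TPM and length the EPRSTOPE call was lost (0.47, adjusted p = 0.018). Mt2 was at 17.4, 24.8 and 21.2 CPM in mock, 30.5, 29.2 and 27.4 in EPR and 21.9, 34.7 and 33.4 in EPRSTOPE, and only the EPR libraries were clear of mock. Neither difference was called (0.45 ± 0.17 and 0.51 ± 0.17, adjusted p = 0.042 and 0.025), although the second was called without EPRSTOPE library 209 (0.68, adjusted p = 0.0015) and by DESeq2 (0.52, adjusted p = 0.0064). The antisense gene Gm45774 overlaps Mt2 by 749 bases.

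Mtf1, the zinc sensor that drives Mt1, Mt2 and Slc30a1, was at 33.1, 34.8 and 38.0 CPM in mock, 26.4, 27.7 and 23.3 in EPR and 32.9, 30.9 and 22.8 in EPRSTOPE. All 6 overexpressing libraries were below the mock libraries, by a narrow gap in EPRSTOPE. The differences were not called (-0.46 ± 0.13 and -0.30 ± 0.13, edgeR adjusted p = 0.011 and 0.077). In the 250 bases before the start of RefSeq genes (GRCm38.p6), the metal response element core bound by MTF1, TGCACNC or TGCGCNC on either strand, was present for 19 of the 35 metal genes with such a window and for 23.8% of 27025 genes. Of the genes called in any comparison, Mt1, Slc30a1, Atp7b, Slc39a11, Slc41a1 and Slc41a2 were among the 19, and so was Mt2. Fth1, Slc11a1, Slc39a1, Slc39a7 and Slc39a10 were called and searched but held no match. Slc39a4, Slc39a6, Slc39a14, Slc11a2, Slc40a1 and Slc30a8 had no such window and were not searched. A site on 1 strand can overlap a site on the other, and no match says only that these letters are not in the window.

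Of the copper genes, Atp7b (ENSMUSG00000006567, chr8:21992785-22060305, minus strand), the pump that exports copper into bile and is mutated in Wilson disease, was called. It was low, at 1.86, 2.0 and 0.895 CPM in mock, 6.20, 4.80 and 5.23 in EPR and 2.88, 2.56 and 1.5 in EPRSTOPE. EPR lay above both other conditions, which overlapped. The log2 fold change was 1.81 ± 0.35 in EPR (edgeR adjusted p = 0.0011) and 0.56 ± 0.38 in EPRSTOPE (adjusted p = 0.25). EPR against EPRSTOPE gave 1.24 ± 0.34 (adjusted p = 0.016), which was not called, while 6 alternatives called it. These were DESeq2, limma, no filter, the filter of 10 counts in every library, a fit of the 2 conditions alone and edgeR without mock library 205 (adjusted p = 0.0031 to 0.0097). The related pump Atp7a, which loads copper onto secreted enzymes, showed 0.36 ± 0.08 in EPR and 0.12 ± 0.08 in EPRSTOPE and was not called. Slc31a1, the copper importer CTR1, was at 55.3, 56.2 and 56.2 CPM in mock, 53.0, 46.7 and 44.9 in EPR and 52.5, 62.4 and 64.3 in EPRSTOPE. Its differences from mock, -0.21 ± 0.09 and 0.10 ± 0.09, were not called (adjusted p = 0.065 and 0.39). Slc31a2 had 0.46 ± 0.17 and 0.51 ± 0.17 and was not called either.

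Of the magnesium transporters, Slc41a2 rose on the log2 scale in both conditions, by 0.57 ± 0.13 in EPR and 0.76 ± 0.14 in EPRSTOPE (edgeR adjusted p = 0.0037 and 0.00055). The EPR call was lost without mock library 204 or 205 or EPR library 207 (0.48 to 0.54), and both were lost with the rebuilt counts, where the changes were larger but less precise (0.88 and 1.18). Slc41a1 showed 0.46 ± 0.11 in EPR and rose by 0.60 ± 0.11 in EPRSTOPE (adjusted p = 0.0009). The EPRSTOPE call was lost without EPRSTOPE library 211 (0.50) and with the rebuilt counts (0.32, adjusted p = 0.46), and Slc41a1 was called in EPR without EPR library 208 (0.53). Slc41a3, at 0.422 to 1.84 CPM, was not called.

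Several metal genes lie on chromosomes where the median change of the other tested genes was away from 0. The median log2 fold change of the other tested genes was 0.49 in EPR and 0.51 in EPRSTOPE on chromosome 15, which holds Slc11a2 and Slc39a4, and 0.49 and 0.59 on chromosome 14, which holds Slc39a14. Within 1000000 bases it was 0.72 and 0.79 over the 33 neighbours of Slc11a2, 0.57 and 0.58 over the 63 of Slc39a4 and 0.92 and 1.05 over the 23 of Slc39a14. Fth1 lies on chromosome 19, where the median was -0.02 in EPR and -0.56 in EPRSTOPE, beside 0.62 and 0.24 for Fth1 itself. Slc39a9 lies on chromosome 12, with medians of -0.27 and -0.08, beside -0.44 and -0.06 for the gene. Over the 31 neighbours of Mt1 and Mt2 within 1000000 bases the median was 0.40 and 0.18. Mt1 itself had 0.41 and 0.70, and Mt2 had 0.45 and 0.51. These medians were chosen for comparison after the values were seen, and the part of the chromosome shifts in the changes of the metal genes was not tested.

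**Figure D5:**
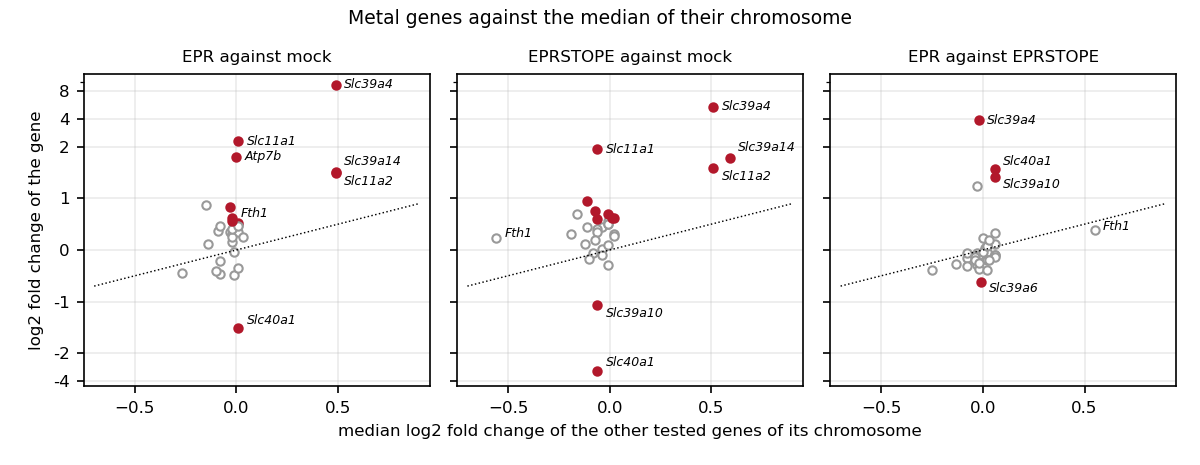
Log2 fold change of each tested metal gene (vertical, linear to 2 and logarithmic beyond) against the median log2 fold change of the other tested genes of its chromosome (horizontal), in the 3 comparisons. Filled points were called and the dotted line marks equality; Slc11a2, Slc39a4 and Slc39a14 sit to the right, on chromosomes with medians of 0.49 to 0.59 against mock, and lie above the line.

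At the level of single transcripts, 101 of the 187 annotated for the metal genes were tested. In EPR against mock 7 were called higher and 0 lower, against 2.87% and 1.20% of 45412 transcripts. In EPRSTOPE against mock 7 were higher and 3 lower, against 3.11% and 1.53%, and in EPR against EPRSTOPE 2 were higher and 0 lower, against 0.469% and 0.385%. The called transcripts were mostly the main forms of genes described above, such as Slc39a4-201, Slc39a14-202, Slc39a1-201 and the 2 Slc11a2 forms. Slc30a9-207, annotated as a nonsense-mediated decay transcript, was called higher in EPRSTOPE (0.53 ± 0.08, edgeR adjusted p = 0.0059) although the gene was not. In EPR it showed nearly the same change without a call (0.46 ± 0.08, adjusted p = 0.012). EPR against EPRSTOPE gave -0.07 ± 0.08 (adjusted p = 0.89).

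Other genes that handle these metals were followed through 4 lists. Of the 31 genes on the iron list, 29 were found by symbol, without Flvcr1 and Flvcr2, and 20 were tested. Of these, 6 were higher and 1 lower with EPR and likewise with EPRSTOPE. Among all genes 15.2% were higher and 12.9% lower with EPR and 15.6% and 12.4% with EPRSTOPE, while EPR against EPRSTOPE gave 6.86% and 6.35%. In either direction these shares came to 28.1%, 28.0% and 13.2%. The largest changes in EPR were those of Lcn2, which binds iron-loaded siderophores (8.20 on the log2 scale), Steap4, a metal reductase at 0 CPM in mock, Trf, transferrin itself (5.31), and Cp, the ferroxidase that works with ferroportin (3.08). In EPRSTOPE they were Steap4, Lcn2 (6.98), Cp (2.57) and Slc25a37, the mitochondrial iron importer (1.77). Cp averaged 179 CPM in mock and rose to 1508 with EPR and 1057 with EPRSTOPE, while Lcn2 was at 0.467, 140 and 60.3 CPM and Trf at 0.548, 22.9 and 0.266 CPM. The 1 gene that fell with both was Hmox1, which frees iron from heme (-1.55 and -1.26). Between the forms 4 were higher and 4 lower in EPR, led by Trf (6.24), Steap4 (-2.54), Tfr2 (-1.98) and Hfe (1.84). In EPR and EPRSTOPE Steap4 averaged 0.88 and 5.31 CPM, Tfr2 0.662 and 2.74, and Hfe 1.95 and 0.518. These 4 genes each averaged under 1 CPM in 1 of the forms, so their fold changes rest on few counts there. Trf passed the filter through the EPR libraries alone, and Steap4 and Lcn2 passed it through the overexpressing libraries alone. The list's median log2 fold change was 0.11, 0.14 and -0.08 in the 3 comparisons, beside -0.01, -0.04 and 0.01 for all genes.

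Of the copper list, 15 of 18 genes were tested, with 7 higher and 2 lower in EPR, 4 and 2 in EPRSTOPE, and 1 and 1 between the forms, beside 28.1%, 28.0% and 13.2% of all genes called in either direction. The list's medians were 0.19, 0.21 and 0.04. Sod3, the extracellular superoxide dismutase, rose by 3.16 in EPR and 4.69 in EPRSTOPE and was lower in EPR than in EPRSTOPE (-1.52). Cp, which also carries copper, is on both lists. Loxl3, a lysyl oxidase, fell by 1.97 and 1.59 on the log2 scale, and Loxl2 by 0.55 and 1.03. Sco2, a copper chaperone of cytochrome oxidase, rose by 1.16 in EPR.

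Of 7 tested genes on the further zinc list (10 listed), 4 were higher and 1 lower in EPR, 2 and 0 in EPRSTOPE, and 2 and 2 between the forms, beside the same 28.1%, 28.0% and 13.2% of all genes, with medians of 0.59, 0.31 and 0.28. These counts include Ggh, a folate hydrolase that is not known as a zinc protein. Alpl, the zinc-dependent alkaline phosphatase, fell from 35.3 to 5.31 CPM in EPR (-2.71) and was at 35.2 CPM in EPRSTOPE (-0.01), a difference between the forms of -2.70 that was called. Car2, a carbonic anhydrase, rose by 2.81 and 2.0, Ggh by 0.51 and 1.36, and Tmem163, a zinc transporter outside the families above, by 3.37 in EPR, from 0.16 to 1.94 CPM. Tmem163 was also higher in EPR than in EPRSTOPE, by 3.12. It reached at most 0.326 CPM in mock and 0.46 in EPRSTOPE, so it passed the filter through the EPR libraries alone. The counts above include its calls. Of 14 tested genes on the magnesium list (16 listed), 4 were higher in EPR and 3 in EPRSTOPE, 0 were lower in either, and 2 were lower in EPR than in EPRSTOPE, beside 15.2%, 15.6% and 6.35% of all genes in those directions, with medians of 0.26, 0.24 and 0.05. The largest changes were those of Nipal1 (0.94 in EPR, 2.11 in EPRSTOPE and -1.17 between them), Mmgt2 (0.83 and 0.89 against mock) and Cnnm3 (0.80 in EPRSTOPE).

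Of the 41 genes, 9 were below the level needed for a test. No count was given to Mt3, Slc30a2 or Slc39a12 in any library. Slc30a10 had 1 count in 1 EPR library, Slc30a3 had 2 counts in each of 2 EPRSTOPE libraries, and Slc30a8 had at most 3 counts in a library. Slc39a2, Slc39a5 and Slc39a8 were detected in most libraries, at up to 1.27, 0.758 and 0.466 CPM. Differences between conditions were not detectable at this depth for these genes.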

How the data were processed

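RNA-Seq was analysed from 9 libraries, grouped by their genotype labels and named by the library numbers 203 to 211. Libraries were made with a stranded total RNA kit and, per the labels, read as 75-base pairs on a NextSeq, while the study's methods name another instrument. The authors quantified reads with Kallisto 0.43.1 on Gencode vM15 (GRCm38.p5 per the processing notes) and deposited 2 values per transcript, an estimated count that is not normalized and a TPM that the authors scaled by effective length to a sum of 1000000 per library. Whether Kallisto used strand is not given in the sources used here, so overlapping genes on opposite strands may share counts.

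Estimated counts were summed per gene symbol and rounded. The 15370 genes and 45412 transcripts that reached 1 CPM in 3 or more libraries entered edgeR 4.0.16 (quasi-likelihood, R 4.3.3, TMM, a single factor of 3 conditions, all 9 libraries, Benjamini-Hochberg adjustment). The limits for a call were 0.01 for the adjusted p and 0.5 for the log2 fold change in either direction. CPM are TMM-normalized. Standard errors were derived from the test's F statistic. Values in every library are given for genes called beyond a log2 fold change of 1 in any comparison and for 11 genes chosen by role, and up to 4 called genes are named per further list. DESeq2 1.42.0, limma 3.58.1 (voom), another normalization, 2 other filters, counts rebuilt from TPM and length, fits of 2 conditions, a stricter limit, added pseudogenes and leaving out each library were tried. On simulated data for EPR against mock (14471 genes, 200 changed), edgeR recovered 190 with 1 false call. The planted changes were well beyond the limit of 0.5 and the spread was the same for all genes, so calls near that limit were not covered. The members and lists were chosen with earlier results of these data known. Positions are from Gencode M21 on GRCm38.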

Additional observations from a re-analysis of the deposited data

How the results depend on the processing

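No paired analysis was possible because the library numbers are not shared between conditions. Over the alternatives, no metal gene changed direction after being called. Of 510 values per comparison, 492, 502 and 502 kept their call or lack of one for EPR and EPRSTOPE against mock and for EPR against EPRSTOPE. Of the others, 10, 5 and 2 lost the call and 8, 3 and 6 gained one. Uncalled genes could change sign, as Mtf1 did in EPR against EPRSTOPE (-0.31 to 0.29). With a log2 fold change beyond 1 the genes called higher numbered 5 and 4 in EPR and EPRSTOPE against mock, and 0 were lower in EPR than in EPRSTOPE. With counts rebuilt from TPM and length, 6 were higher in EPRSTOPE against mock and 0 lower in EPR than in EPRSTOPE. The filter of 10 counts in every library left Slc39a4 untested. Leaving out 1 library gave 7 to 10 higher and 1 to 2 lower in EPR against mock, 9 to 11 and 2 in EPRSTOPE against mock, and 3 to 4 and 1 in EPR against EPRSTOPE, and the second lower gene was Slc39a13. For transcripts, limma called 1 lower in EPR against mock. Leaving out 1 library gave 5 to 6 transcripts higher and 0 to 1 lower in EPR against mock (1 without EPRSTOPE library 209 or 211), 4 to 7 higher (4 without mock library 204) and 1 to 2 lower (1 without mock library 205 or EPRSTOPE library 211) in EPRSTOPE against mock, and 1 to 2 higher in EPR against EPRSTOPE (1 without any of mock 204, EPR 206, 207 and 208, and EPRSTOPE 209 and 211). Where no cause is named, the cause was not tested. Depth limits the values of Slc39a4 in mock, Slc11a1, Atp7b and Slc41a3, and intervals cover counting error only.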
